A study of Homo sapiens with 6 samples.

Results

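Macrophage and granulocyte growth factors, together with MIF and its receptor, were examined in AsPC-1 cells that overexpressed MMP28. The 8 genes, CSF1, CSF2, CSF3, IL34, MIF, DDT, CD74 and GAS6, were chosen by name and made up 8 of the 58735 genes in the table. AsPC-1 is a pancreatic cancer cell line that has long been in culture, and the product of MMP28 is a metalloproteinase that cells secrete into the matrix. Total RNA was sequenced in 3 libraries of cells that had received a lentivirus without insert (Vector) and in 3 of cells that had received an MMP28 lentivirus (OE-MMP28). Both groups therefore carried a lentiviral vector, and cells of both were selected with puromycin. The labels gave the genotype of the Vector cells as WT and that of the OE-MMP28 cells as MMP28 overexpression. Whether the selected cells were 1 clone was not given in the sources used here. The question was whether tumor cells with more MMP28 RNA differed in the RNA of signals that act on macrophages and granulocytes.

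CSF1 and IL34 are ligands of the receptor CSF1R and maintain macrophages, CSF2 drives macrophages, granulocytes and dendritic cells, and CSF3 drives neutrophils. MIF and its homolog DDT are small secreted cytokines that bind CD74, which is also the invariant chain of MHC class II molecules, and CD74 signals with CD44 or with chemokine receptors. GAS6 is a vitamin K-dependent ligand of the receptor kinases TYRO3, AXL and MERTK, which macrophages use when they take up dying cells.

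The libraries held 13633249 to 16691458 counts. A count of 0 therefore allowed up to 0.180 to 0.220 CPM (counts scaled to the library total), taken as 3 counts and covering counting error only. Mitochondrial genes took 8.80% to 14.8% of the counts. MMP28 itself had counts of 226, 352 and 355 in the Vector libraries and 591, 628 and 725 in the OE-MMP28 libraries, without overlap. Its log2 fold change was 0.90 (SE 0.19, adjusted p = 0.00226, edgeR quasi-likelihood test with Benjamini-Hochberg adjustment over 15319 genes). Reads of the transgene and of the endogenous gene cannot be told apart. Of 7 epithelial markers, EPCAM was at 260 to 327 FPKM (fragments scaled to gene length and library total), whereas KRT7 was lowest, at 0.597 to 2.22 FPKM. By the same edgeR test MUC1 (log2 fold change 2.16, adjusted p = 3.60e-08) and KRT19 (0.71, adjusted p = 0.00175) rose, CDH1 (-0.59, adjusted p = 0.0113) fell, and the other 4 were not called. The tested genes within 10 Mb of CDH1 had a median log2 fold change of -0.37, so much of its fall was shared with genes near it. Nothing in the labels said that the libraries of a group came from separate cultures, so the p-values measure only the spread between these libraries, which may be technical.

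Of the 8 genes, GAS6 and CD74 rose in OE-MMP28 cells, CSF1 did not pass the test, and CSF2, CSF3, IL34, MIF and DDT had too few counts to enter it. The 2 called were of 3 tested, against 23.4% of all genes tested that were called in either direction and 11.7% that were called higher. In this edgeR fit both also passed the thresholds stated in the study, a p under 0.05 (read here as unadjusted) with a log2 fold change beyond 1. So did 8.50% of all genes tested in either direction (1302 genes) and 3.45% in the higher direction. The study reported fewer genes at these thresholds, so its own list may not hold GAS6 or CD74. GAS6 lay close to that fold threshold and fell below it with limma, the tool the study names, on log2(FPKM + 1) (0.72) and log2(FPKM + 0.1) (0.96), without OE-MMP28 2 (0.99) and without OE-MMP28 3 (0.86). CD74 was also below it, at 0.44, with limma on log2(FPKM + 1) without a filter. A filter on mean FPKM of 0.5 removed CD74 from the filtered limma fits on FPKM. With limma voom on counts, GAS6 was at 1.01 and CD74 at 1.42. With so few members tested, the share of members called was not read as a property of the group. MIF counts were higher in each OE-MMP28 library, yet its entire coding sequence was shared with exons of other genes.

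Levels can be compared between genes as FPKM. In the deposited FPKM, GAS6 stood highest of the 8, with a mean of 2.77 over the 6 libraries, above 69.2% of the 30568 genes with any count. Its lowest library, at 1.70 FPKM, lay above the highest library of each other member. CSF1 (mean 0.608 FPKM), CSF2 (0.499 FPKM), CD74 (0.490 FPKM) and MIF (0.422 FPKM) followed, and their ranges over the libraries overlapped. DDT stood at 0.104 FPKM, IL34 had 1 read in 1 library, and CSF3 had none. The places of MIF and DDT are uncertain, because 100% and 59.3% of their coding bases are also exon bases of other genes.

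**Figure D1:**
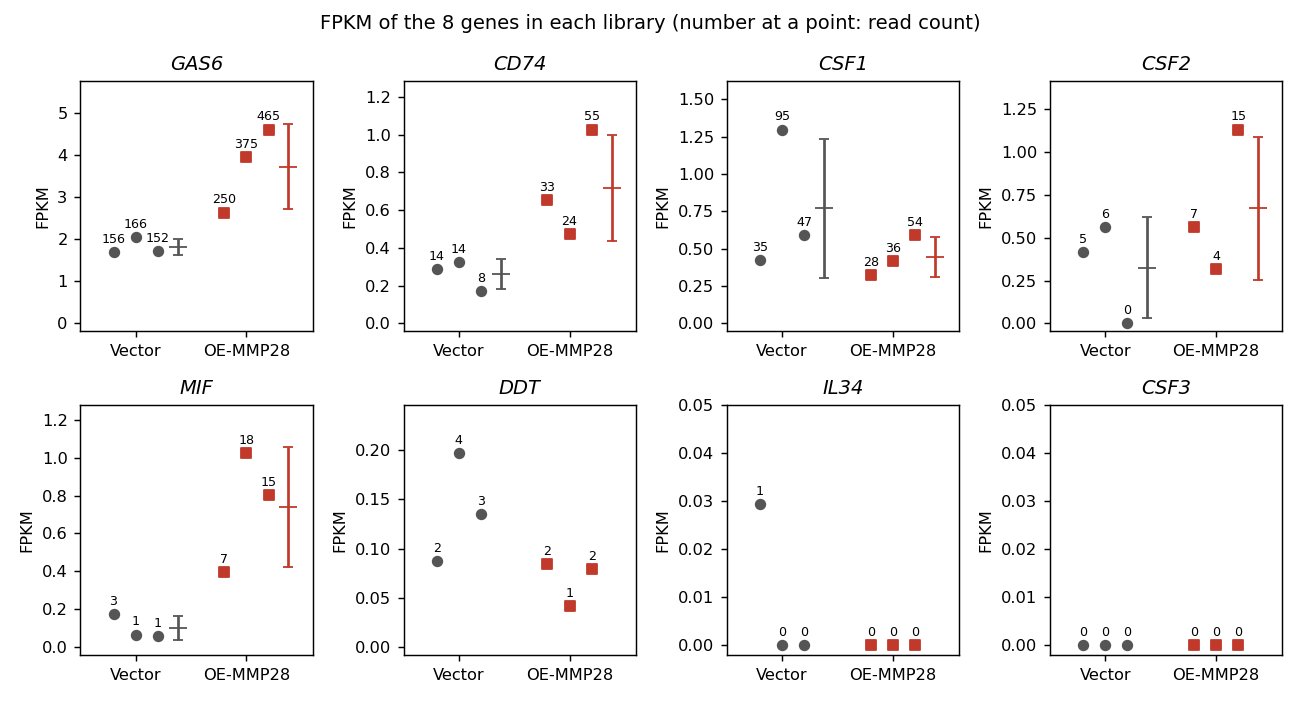
FPKM (vertical axis, a separate linear scale from 0 for each gene) of the 8 genes in the 3 Vector libraries (grey circles) and the 3 OE-MMP28 libraries (red squares), with the read count at each point and the mean and SD beside the points for genes with more than 4 reads in a library. GAS6, CD74 and MIF show OE-MMP28 libraries that all lie above the Vector libraries, whereas those of CSF1 and CSF2 overlap. In CPM, 19.5% of all genes tested, which did not include MIF, had all OE-MMP28 libraries higher. The OE-MMP28 libraries of DDT lie lower, at counts near the floor.

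GAS6 lies on the minus strand of chromosome 13 (113820549 to 113864067, GRCh38). It had counts of 156, 166 and 152 in the Vector libraries and 250, 375 and 465 in the OE-MMP28 libraries. On the FPKM scale the level was 1.82 ± 0.195 (SD, n = 3) in Vector and 3.72 ± 1.00 (SD, n = 3) in OE-MMP28 cells. All OE-MMP28 libraries were above all Vector libraries, as was so in CPM for 19.5% of all genes tested. The spread was wider among the OE-MMP28 libraries. The log2 fold change was 1.05 (SE 0.21, adjusted p = 0.00134, edgeR with Benjamini-Hochberg adjustment). A two-sided exact permutation test of the FPKM values returned p = 0.1, which is the lowest that a comparison of 3 with 3 can reach. Of 19 alternative settings, 18 kept the call, and the log2 fold change ranged from 0.72 to 1.23.

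An antisense gene, GAS6-AS1, covers 7.01% of the exon bases and 16.4% of the coding bases of GAS6. Its counts were 170, 197 and 169 in Vector and 206, 320 and 434 in OE-MMP28 libraries. The log2 fold change of GAS6-AS1 was 0.68 (SE 0.22, adjusted p = 0.0321, edgeR with Benjamini-Hochberg adjustment), its FPKM values overlapped between the groups, and the call was lost under 9 of 18 alternatives. Because strand was not stated to have been used in counting, reads over the shared bases cannot be assigned to either gene with certainty. The log2 ratio of GAS6 to GAS6-AS1 within a library, on the FPKM scale, was 0.08 ± 0.06 (SD) in Vector and 0.46 ± 0.09 (SD) in OE-MMP28 cells, without overlap (two-sided exact permutation p = 0.1). GAS6 thus differed by more than its antisense partner in these libraries.

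CD74, on the minus strand of chromosome 5 (150401637 to 150412929), was much lower in level. Its counts were 14, 14 and 8 in Vector libraries and 33, 24 and 55 in OE-MMP28 libraries. That corresponded to 0.261 ± 0.0807 FPKM (SD, n = 3) and 0.719 ± 0.281 FPKM (SD, n = 3). The groups did not overlap, as was so for 38.1% of all genes tested, 19.5% with OE-MMP28 higher. The log2 fold change was 1.47 (SE 0.41, adjusted p = 0.0139, edgeR with Benjamini-Hochberg adjustment). This call rested on single libraries: without Vector 3 the log2 fold change was 1.24 (adjusted p = 0.0712), and without OE-MMP28 3 it was 1.12 (adjusted p = 0.107). No exon of another gene overlaps CD74.

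Myeloid cells express CD74 strongly and fibroblasts express GAS6, so markers of both were read beside these changes. Of 12 myeloid markers, 10 had too few counts to be tested. CD14 was tested and not called, at 0.863 to 1.04 FPKM in Vector and 0.569 to 0.738 FPKM in OE-MMP28 libraries (adjusted p = 0.243, edgeR), and in Vector it lay above CD74. TYROBP was at 0, and PTPRC and CD163 had at most 1 read in any library. The summed myeloid level was 164 to 187 FPKM in Vector and 106 to 146 FPKM in OE-MMP28 libraries, nearly all of it LYZ (lysozyme), which fell (log2 fold change -0.45, adjusted p = 0.0376, edgeR). Without LYZ the sums were 1.13 to 1.30 and 0.991 to 1.32 FPKM. Of 7 fibroblast markers, only LUM had enough counts to be tested, and it was not called. Without LUM, the summed fibroblast level was 0.0756 to 0.176 FPKM in Vector and 0.102 to 0.130 FPKM in OE-MMP28 libraries. The levels of LYZ and of LUM, at 33.8 to 56.9 FPKM, were thus high without most other markers of those cell types, and their part in the changes of CD74 and GAS6 was not tested.

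The stretches before the RefSeq start sites of GAS6 and CD74 are shown because these are the members that rose together. Each gives 250 bases upstream of the start on the gene's own strand (RefSeq, GRCh38.p14, minus strand), at chr13:113864077-113864326 for GAS6 and chr5:150412911-150413160 for CD74. Capitals mark the match to any of 4 short motifs searched on both strands.
GAS6: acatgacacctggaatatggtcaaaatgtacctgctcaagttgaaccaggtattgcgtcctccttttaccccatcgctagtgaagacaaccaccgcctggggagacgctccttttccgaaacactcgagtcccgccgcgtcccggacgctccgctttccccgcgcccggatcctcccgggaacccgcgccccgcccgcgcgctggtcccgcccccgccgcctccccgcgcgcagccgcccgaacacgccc
CD74: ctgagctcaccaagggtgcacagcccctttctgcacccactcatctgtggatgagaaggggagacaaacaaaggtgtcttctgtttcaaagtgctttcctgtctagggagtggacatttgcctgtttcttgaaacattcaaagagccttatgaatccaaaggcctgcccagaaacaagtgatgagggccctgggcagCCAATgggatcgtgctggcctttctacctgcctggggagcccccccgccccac
The motifs were TGANTCA (AP-1), ACGTG (the core of the hypoxia response element), TGACG (part of the cAMP response element) and ATTGG (an inverted CCAAT box), and none overlaps another in these windows. The GAS6 window held no match. The CD74 window held 1 CCAAT, at position -53 from the start, a match that 32.0% of 35116 promoter windows of this length also held. GC content was 66.8% for GAS6 and 54.4% for CD74. These matches are descriptions of the letters and say nothing of binding.

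CSF1, on the plus strand of chromosome 1 (109910242 to 109930992), had counts of 35, 95 and 47 in Vector and 28, 36 and 54 in OE-MMP28 libraries. The second Vector library was far above the rest, and the groups overlapped. The level was 0.769 ± 0.465 FPKM (SD, n = 3) against 0.446 ± 0.135 FPKM (SD, n = 3), and the log2 fold change of -0.76 (SE 0.37) did not pass the test (adjusted p = 0.147, edgeR with Benjamini-Hochberg adjustment). Without Vector 2 the log2 fold change was -0.16 (adjusted p = 0.803), whereas without Vector 1 it was -1.05 and passed (adjusted p = 0.0245). A difference in CSF1 was therefore not resolved by these libraries.

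The other colony-stimulating factors were at the limit of detection. CSF2, on chromosome 5, had counts of 5, 6 and 0 in Vector and 7, 4 and 15 in OE-MMP28 libraries, which overlapped. Its summed counts gave a rate 2.11 times as high in OE-MMP28 cells (95% exact interval 1.01 to 4.73, counting error only), and in the fit without a filter on low counts its adjusted p was 0.473 (edgeR). IL34 had 1 read in Vector 1 and none elsewhere. CSF3 had 0 counts in each library. The counts of 0 allow a level of up to 0.180 to 0.220 CPM for either gene, and a ratio of CSF1 to IL34 could not be formed.

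MIF and DDT lie on chromosome 22, where both share exon bases with other genes. This sharing, and near-identical copies, bear on what a count can mean. DDTL, a copy of DDT next to it, is identical to DDT over the first 285 coding bases and over 93.5% of 352 aligned bases. No stretch of 50 bases in MIF or in any other member recurred in a gene that does not overlap it at the same locus, with a share of 0% for each.

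MIF had counts of 3, 1 and 1 in Vector libraries and 7, 18 and 15 in OE-MMP28 libraries. All OE-MMP28 libraries were above all Vector libraries, at 0.742 ± 0.317 FPKM (SD, n = 3) against 0.102 ± 0.0653 FPKM (SD, n = 3). Among the genes tested, which did not include MIF, 19.5% had this order in CPM. The summed counts gave a rate 7.14 times as high (95% exact interval 2.82 to 23.2, counting error only), and the two-sided exact permutation p of the FPKM values was 0.1. MIF did not pass the filter on low counts. In the fit without that filter its log2 fold change was 2.77 (adjusted p = 0.00455, edgeR with Benjamini-Hochberg adjustment over 30568 genes, of which 11.9% were called). With limma on unfiltered log2(FPKM + 1) its adjusted p was 0.0890.

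What these few reads can say of the level of MIF is limited by its neighbors. By mass spectrometry the study lists MIF protein among candidate partners of MMP28 in AsPC-1 cells. The low counts were therefore not read as absence of MIF, and a protein found in this way gives no level of the RNA. In GENCODE release 29, whose gene models matched the table, 100% of the MIF coding bases are also exon bases of other genes. The antisense gene MIF-AS1 covers all of them, and AP000350.4, a gene on the same strand, covers 68.7%. The exon bases of MIF that no other gene covers number 422 of 1109 and form the 5′ end, chr22:23894004-23894425, of which 379 bases lie before the RefSeq start of MIF and 43 lie after it. MIF-AS1 had counts of 3, 1 and 3 in Vector and 0, 0 and 2 in OE-MMP28 libraries, and AP000350.4 had at most 1. Even summed, the 3 genes had only 6, 2 and 5 reads in Vector and 7, 19 and 17 in OE-MMP28 libraries. Whether reads that fell in more than 1 gene were left out of the counts was not stated and was not tested.

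Genes that share nearly all of their coding sequence with exons of other genes often had few counts in the table. Among protein-coding genes, 76.2% of the 978 with at least 90% of their coding bases covered by other genes had a mean count under 10, against 38.6% of the 14390 with no coding base covered. Of the 4583 genes covered in part, below 90%, which is the class of DDT and GAS6, 28.6% had a mean count under 10, less than among uncovered genes. Most of the 978, 902 genes, were covered by at least 90% on the same strand, and 76.9% of these had a mean count under 10. Of the 55 genes covered by at least 90% on the other strand alone, 76.4% had a mean count under 10. MIF, covered 68.7% on the same strand and 100% on the other, belongs to neither of these subsets. These shares describe the table and were not tested.

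**Figure D2:**
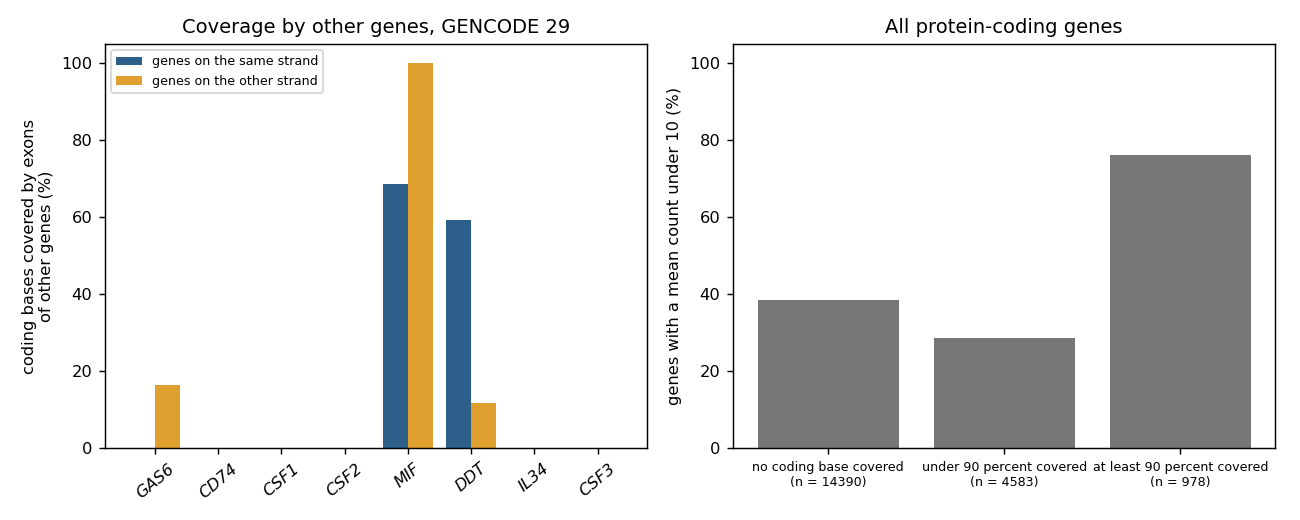
Left, percentage of coding bases of each of the 8 genes that are covered by exons of other genes on the same strand (blue bars) or the other strand (yellow bars), where MIF reaches 100% on the other strand and 5 genes show no bar. Right, percentage of protein-coding genes with a mean count under 10 by how much of their coding sequence is covered, which is 38.6% with none covered, 28.6% with part covered and 76.2% with at least 90% covered.

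The 250 bases before the RefSeq start of MIF are shown because they lie within the 5′ exon bases that only MIF covers in GENCODE (RefSeq, GRCh38.p14, plus strand, chr22:23894133-23894382). Capitals mark the single motif match.
MIF: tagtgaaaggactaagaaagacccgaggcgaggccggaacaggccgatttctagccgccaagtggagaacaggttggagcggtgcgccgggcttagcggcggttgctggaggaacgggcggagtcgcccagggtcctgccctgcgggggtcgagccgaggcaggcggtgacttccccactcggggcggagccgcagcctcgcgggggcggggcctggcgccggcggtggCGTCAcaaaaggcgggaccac
The match is the reverse complement of TGACG, at position -21 from the start, and 21.2% of the 35116 windows held this motif.

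DDT, on the minus strand (23971365 to 23979828), had 2, 4 and 3 reads in Vector and 2, 1 and 2 reads in OE-MMP28 libraries. These counts are at or near the floor of 3 reads in both groups, so no fold change is given. In FPKM, DDT was lower in all OE-MMP28 libraries than in all Vector libraries, which at these counts was not read as a change. Other genes cover 59.3% of its coding bases. DDTL, which shares the coding start, had 47, 51 and 63 reads in Vector and 70, 30 and 71 in OE-MMP28 libraries and did not differ beyond its spread (log2 fold change -0.07, SE 0.32, adjusted p = 0.908, edgeR). Since DDT and DDTL are near-identical over much of their coding sequence, reads could be split between them or dropped, and both values are uncertain. For the same reason no ratio of MIF to DDT is given.

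The receptors of these ligands were examined next. Of 13 receptors and co-receptors, 7 had enough counts to be tested, 1 rose and 3 fell, where 11.7% of all genes tested were called higher and 11.6% lower, with a median log2 fold change of -0.50 against 0.01 over all genes tested. That median is the value of SDC1. The 3 that fell, SDC1, MERTK and ACKR3, all lie on chromosome 2. Tested genes within 10 Mb of each had median log2 fold changes of -0.52, -0.36 and -0.29, so the fall was not read as a property of the list. The receptors of the colony-stimulating factors were nearly silent, with CSF2RA, CSF2RB and CSF3R at 0 in each library and CSF1R at 0 to 5 reads. Among the GAS6 receptors, MERTK fell from 328, 339 and 375 reads in Vector to 151, 128 and 104 in OE-MMP28 libraries (log2 fold change -1.59, SE 0.20, adjusted p = 9.74e-06, edgeR). AXL, the most abundant of the 3 at 20.5 to 25.2 FPKM, had a log2 fold change of 0.04 (SE 0.15, adjusted p = 0.864, edgeR), and TYRO3 one of -0.20 (SE 0.18, adjusted p = 0.453, edgeR). GAS6 and its receptor MERTK therefore moved in opposite directions, while AXL and TYRO3 overlapped between the groups. With the median of the genes near it taken off, MERTK was at -1.23 and was still called (adjusted p = 2.19e-04, edgeR).

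The partners of CD74 also differed among themselves. CD44, the co-receptor through which MIF bound to CD74 signals, stood at 26.4 ± 2.20 FPKM (SD, n = 3) in Vector and 45.1 ± 3.70 FPKM (SD, n = 3) in OE-MMP28 cells and rose by 0.78 on the log2 scale (SE 0.14, adjusted p = 5.85e-04, edgeR). ACKR3, an atypical chemokine receptor that binds MIF, fell from 34, 84 and 47 reads in Vector to 2, 1 and 5 in OE-MMP28 libraries (log2 fold change -4.47, SE 0.55, adjusted p = 8.88e-06, edgeR), a size that rests on a few reads in the lower group. CXCR2 was at 0, and CXCR4 had at most 15 reads and was not tested. SDC1, a heparan sulfate proteoglycan that binds IL34, fell by the edgeR test (log2 fold change -0.50, SE 0.15, adjusted p = 0.0181). The median log2 fold change of the tested genes within 10 Mb of SDC1 was -0.52, and with that taken off its value was 0.02 (adjusted p = 0.953). PTPRZ1, another receptor of IL34, had a log2 fold change of -0.76 and did not pass the test (adjusted p = 0.0925, edgeR).

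**Figure D3:**
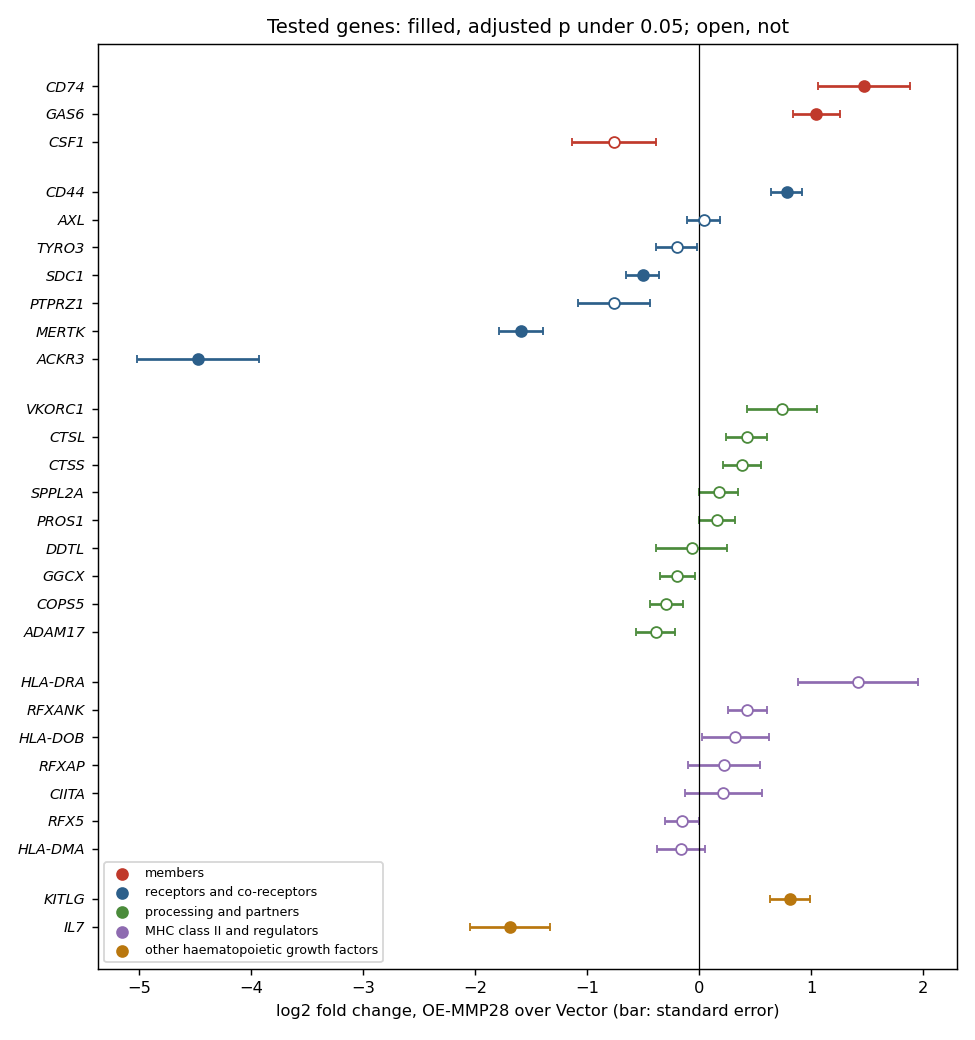
Log2 fold change of OE-MMP28 over Vector (horizontal axis, bars are standard errors) for each tested member and each tested gene of 4 related lists, with filled circles at an adjusted p under 0.05 (edgeR). GAS6, CD74, CD44 and KITLG lie to the right as filled circles, and MERTK, ACKR3, SDC1 and IL7 lie to the left.

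None of the 9 genes that process or accompany the members passed the test, with a median log2 fold change of 0.16. They included VKORC1, which recycles the vitamin K that GAS6 needs (log2 fold change 0.74, adjusted p = 0.0914, edgeR), ADAM17, a protease that sheds MERTK and CSF1 from cells (-0.39, adjusted p = 0.107), and PROS1, the other ligand of the GAS6 receptors (0.16, adjusted p = 0.514). CTSS and CTSL, the cathepsins that cut the invariant chain, had log2 fold changes of 0.38 and 0.43 (adjusted p = 0.108 and 0.0995, edgeR).

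MHC class II genes were read beside CD74, with which they are usually expressed under the control of CIITA. Of 15 class II genes and regulators, 7 were tested and none was called, with a median log2 fold change of 0.22. HLA-DRA had 6, 2 and 9 reads in Vector and 14, 12 and 25 in OE-MMP28 libraries, which did not overlap (log2 fold change 1.42, SE 0.54, adjusted p = 0.0594, edgeR). In CPM, 19.5% of all genes tested had all OE-MMP28 libraries higher. CIITA had a log2 fold change of 0.22 (SE 0.34, adjusted p = 0.691, edgeR). HLA-DQB1 had 2, 4 and 2 reads in Vector and 6, 10 and 20 in OE-MMP28 libraries, too few to be tested. HLA-DMA, which was tested, had a log2 fold change of -0.16 (adjusted p = 0.626, edgeR). HLA-DRB1, HLA-DRB5, HLA-DPB1 and HLA-DQA1 were at 0. Class II genes are polymorphic and have near-identical copies, so their counts are uncertain.

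Of 8 other hematopoietic growth factors, 2 were tested and both were called, against 23.4% of all genes tested. KITLG, the ligand of KIT, stood at 18.9 ± 3.99 FPKM (SD, n = 3) in Vector and 33.1 ± 7.62 FPKM (SD, n = 3) in OE-MMP28 cells and rose by 0.81 on the log2 scale (SE 0.18, adjusted p = 0.0029, edgeR). IL7, a lymphocyte growth factor, fell from 38, 44 and 41 reads to 12, 15 and 15 reads (log2 fold change -1.69, SE 0.36, adjusted p = 0.00203, edgeR). THPO, IL3 and TSLP were at 0.

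The genes whose profile over the 6 libraries was most like that of GAS6 were MXRA8, AC008429.1 and TNFRSF13C, with root-mean-square differences of 0.0808, 0.0873 and 0.0927 on the centered log2 CPM scale, against a median of 0.613 over 15318 genes. For CD74 they were FAM90A1, SLC12A8 and MYO1F, at 0.103, 0.122 and 0.191, against a median of 0.797. MXRA8, for example, had 4.41, 5.15 and 5.10 FPKM in Vector and 6.62, 10.5 and 11.8 FPKM in OE-MMP28 libraries. These genes were picked for their likeness, so a shared order of the libraries follows from the choice. TNFRSF13C and MYO1F were themselves not called (adjusted p = 0.0819 and 0.080, edgeR).

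**Figure D4:**
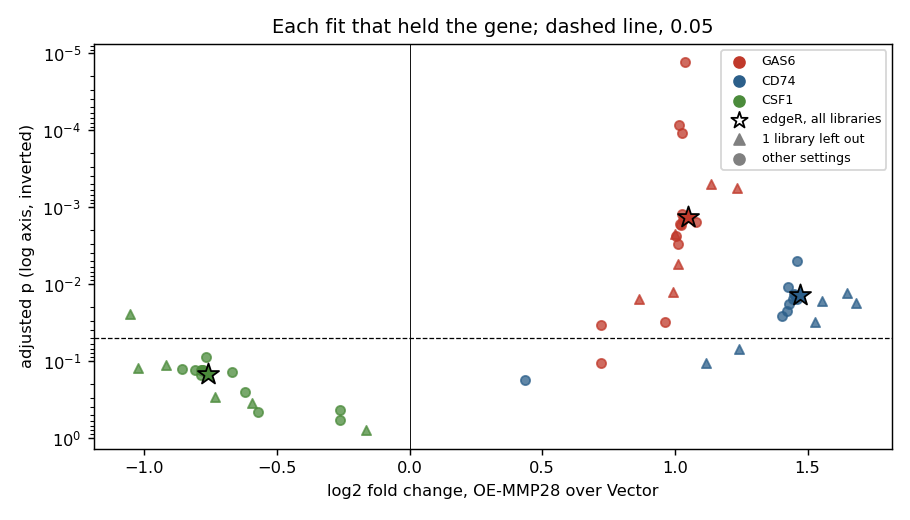
Log2 fold change (horizontal axis) against adjusted p (vertical axis, logarithmic and inverted) of GAS6, CD74 and CSF1 in each fit that held the gene, with stars for edgeR on all libraries, triangles for fits without 1 library and circles for other settings. GAS6 stays above the dashed line at 0.05 in all but 1 fit, CD74 lies below it in 3 fits, and CSF1 passes it in 1.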

How the data were processed

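RNA was sequenced from 3 Vector and 3 OE-MMP28 samples, grouped by their labels. The authors deposited 1 table of read counts per gene, as raw whole numbers that were not normalized, with HISAT2 2.0.5 and featureCounts 1.5.0-p3 named in the submitters' processing notes. The counting options, strand setting and genome build are not given in the sources used here. Gene identifiers and coordinates of all 58735 genes equaled those of GENCODE release 29 on GRCh38, which was therefore used for overlaps. The authors also deposited FPKM values, scaled by gene length and library total (implied totals within -2.01% to 2.02% of the summed counts). A further 5 columns held the authors' own comparison (group means, fold changes and p-values for 27729 genes) and were not used. No per-sample column was left unmapped (0), and 0 rows named no gene.

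Counts were filtered with filterByExpr (minimum count 10, minimum total 15), scaled by TMM and fitted with edgeR 4.0.16 (R 4.3.3) by the quasi-likelihood test, with the group alone in the model. P-values were adjusted over the 15319 genes tested by the Benjamini-Hochberg procedure and called under 0.05. Means ± SD and exact permutation tests used FPKM, and ratios of summed counts have exact 95% intervals. The study names limma, which was an alternative here (limma 3.58.1), as was DESeq2 1.42.0. Scripts were tested on simulated data. Replicate numbers did not pair the libraries. Each pair of libraries, within a group or between groups, differed by more than sampling noise (chi-square per degree of freedom 15.6 to 75.7 over all pairs).

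The 8 genes and the gene lists were chosen with earlier results of these data known. Named were all members, genes of the pathway lists with an adjusted p under 0.05, receptors without counts, genes overlapping or copying a member, and the 3 genes most like each called member. AXL, TYRO3, PTPRZ1, VKORC1, ADAM17, PROS1, CTSS, CTSL, HLA-DRA, HLA-DQB1, HLA-DMA, CIITA and the cell type markers given singly were named after their values were seen. Promoter windows came from RefSeq, which matched 5 of the 8 genes and not CSF1, CSF3 or IL34. A coding sequence of this family is not reported here.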

Additional observations from a re-analysis of the deposited data

How the results depend on the processing

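Each of the 19 alternatives kept the direction of GAS6, CD74, CSF1 and MMP28 where it tested them. limma on unfiltered log2(FPKM + 1) ended the calls of GAS6 (0.72, adjusted p = 0.107), CD74 (0.44, adjusted p = 0.180) and MMP28 (0.84, adjusted p = 0.0903) and left 0 members and 670 genes called (362 higher, 308 lower). With the filter on the same scale GAS6 (adjusted p = 0.034) and MMP28 (adjusted p = 0.0295) had the same fold changes and were called. In the fit without the filter 2 receptors and 0 other growth factors were called. With limma on filtered log2(FPKM + 1), 1 member and 1974 genes were called (1009 higher, 965 lower), and with log2(FPKM + 0.1), 1 member, 1970 genes (1000 higher, 970 lower) and 1 other growth factor, IL7 being lost (adjusted p = 0.0624). CD74 fell below the FPKM filter of 0.5 in these 2 fits. Leaving out each library in turn gave 1 to 4 members (a gain of MIF came from its passing the filter through OE-MMP28 2 and 3 alone and supports nothing) and 2029 to 3865 genes (985 to 1916 higher, 1044 to 1949 lower), against 3579 (1795 higher, 1784 lower) with all libraries. The lowest count came without OE-MMP28 2. Over these fits the log2 fold change was 1.12 to 1.68 for CD74, -1.05 to -0.16 for CSF1 and 0.86 to 1.23 for GAS6, and 0 to 2 processing genes (CTSL, VKORC1 or ADAM17) and 0 to 1 class II genes (RFXANK) were called. Without the count filter 1 processing gene, VKORC1, was called. Taking off the local median left 2328 genes (1104 higher) and turned SDC1 from -0.50 to 0.019 (adjusted p = 0.953). The same step shrank MERTK to -1.23, ACKR3 to -4.19, IL7 to -1.30 and CD44 to 0.63. KITLG stayed at 0.81, and these genes were all still called.

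Libraries with the same replicate number did not deviate together (correlations 0.036, 0.014 and -0.14 across genes), so the numbers were not read as pairs. With the replicate number as a block, 2 members and 3685 genes were called (GAS6 1.01, adjusted p = 8.71e-05, and CD74 1.43, adjusted p = 0.011, edgeR), and 1 class II gene, HLA-DRA, was added. The depth of these libraries limits what can be said of CSF2, CSF3 and IL34. For MIF and DDT, exon bases shared with other genes limit it as well, as does the copy DDTL for DDT.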
